A study of Mus musculus with 6 samples.

Results

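Branched-chain amino acid catabolism was followed through 10 genes of mouse left ventricle, taken by symbol from a table of 31273 genes: Bcat2, Bckdha, Bckdhb, Dbt, Bckdk, Ppm1k, Ivd, Mccc1, Mccc2 and Hibch. All 10 were present, and all 10 passed the filter on low values, a mean of at least 1 TPM over the libraries, which 12404 genes passed. TPM is a length-corrected share of all transcripts of a library. The study asked what a raised level of unmutated RBM20, an RNA-binding protein that regulates cardiac splicing, does in dilated cardiomyopathy. Polyadenylated RNA was sequenced from 3 libraries labelled as cardiomyocyte-specific RBM20 overexpression and from 3 libraries labelled control. Per the series' design text, the model is a tamoxifen-inducible knock-in of RBM20 restricted to cardiomyocytes. About the promoter of the recombinase, the strain, the age, and the alleles and tamoxifen treatment of the control mice, the sources used here say nothing. The sample titles use the abbreviation cre for the overexpression libraries and cki for the control libraries, although the design text writes cKI for the knock-in mice. Groups here follow the genotype label and the column names.

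Leucine, isoleucine and valine are broken down in mitochondria by a shared pair of first steps. An aminotransferase, BCAT2 in muscle, turns them into branched-chain keto acids. The branched-chain keto acid dehydrogenase complex then oxidises these irreversibly, with an E1 component made of alpha (BCKDHA) and beta (BCKDHB) subunits, an E2 core (DBT) and an E3 subunit (DLD) shared with other complexes. The kinase BCKDK phosphorylates the E1 alpha subunit and switches the complex off, and the phosphatase PPM1K reverses this. Beyond the complex each amino acid has its own branch, with IVD and the carboxylase MCCC1/MCCC2 for leucine and HIBCH for valine. In the heart this pathway yields acetyl-CoA and propionyl-CoA, and leucine itself signals to mTORC1.

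Rbm20 followed the genotype labels. It was at 321, 913 and 907 TPM in the overexpression libraries against 74.9, 90.9 and 79.5 TPM in the control libraries. Esr1, the estrogen receptor whose ligand-binding part is used in tamoxifen-inducible recombinases, was at 218, 53.0 and 199 TPM in the overexpression libraries against 0.415, 0.234 and 0.300 TPM in the control libraries. Effects of the recombinase or of tamoxifen cannot be told apart from those of RBM20 here. Ddx3y, a Y-linked gene, was detected in overexpression replicate 1 (88.1 TPM) and listed at 0 in the other 5 libraries, so sex was not balanced between the groups. Read totals, estimated from the steps between low values, were 54530000, 50980000 and 90050000 in the overexpression libraries and 49270000, 70570000 and 41640000 in the control libraries. On the same estimate the 10 genes had between 291 reads (Bckdhb, overexpression replicate 2) and 36872 reads (Ivd, control replicate 2) in a library. Mitochondrially encoded transcripts took 38.7% ± 2.21 of the TPM in overexpression libraries and 49.7% ± 1.99 in control libraries (SD, n = 3 each). TPM has a fixed total, and the median log2(TPM + 1) difference over all tested genes was 0.55. A second scaling therefore divided each library by the median, over genes, of its ratio to their geometric mean. It is called rescaling here and brought that median to 0.01. Gene positions below are those of GRCm38 (GENCODE M21).

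Expression of the pathway was lower in the overexpression ventricles, and the decrease was uneven. Of the 10 genes 8 fell and 0 rose in deposited TPM, whereas 9.09% of all tested genes were lower and 59.0% were higher (limma, Benjamini-Hochberg adjusted over all tested genes, threshold 0.05). After rescaling all 10 were lower and 0 were higher, against 24.0% of all tested genes lower and 22.2% higher. The 8 genes also did not overlap between the groups in TPM, each with 3 of 3 overexpression libraries below every control library, as held for 10.4% of all tested genes in this direction and 62.1% in the other. The median log2(TPM + 1) difference of the 10 genes was -0.79 in TPM and -1.40 after rescaling. Together the 10 genes summed to 408 to 444 TPM in overexpression libraries and to 675 to 711 TPM in control libraries. In whole ventricle, fewer cells of a type and less RNA per cell cannot be told apart.

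**Figure D1:**
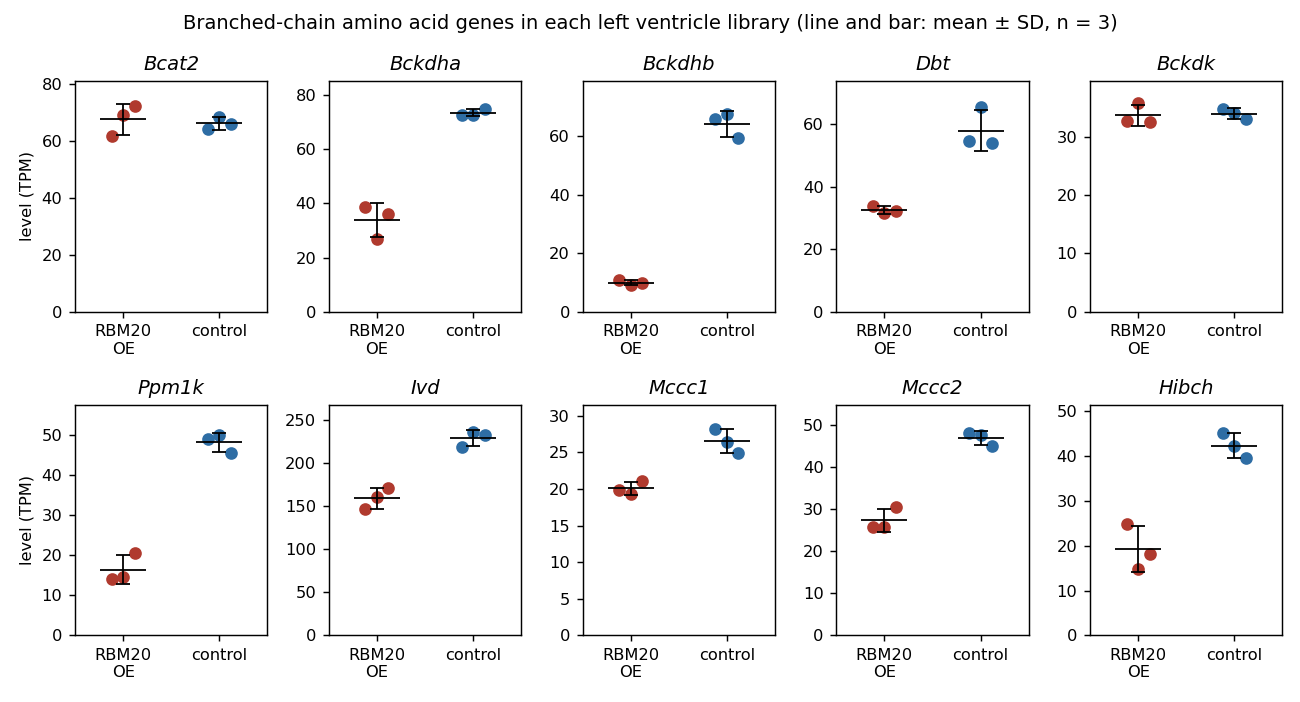
Level in TPM of each of the 10 genes in every library, with RBM20 overexpression (RBM20 OE, red) left of control (blue); each point is a library, and the line and bar give mean ± SD of 3. Points of the groups are apart in 8 panels and overlap for Bcat2 and Bckdk.

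**Figure D2:**
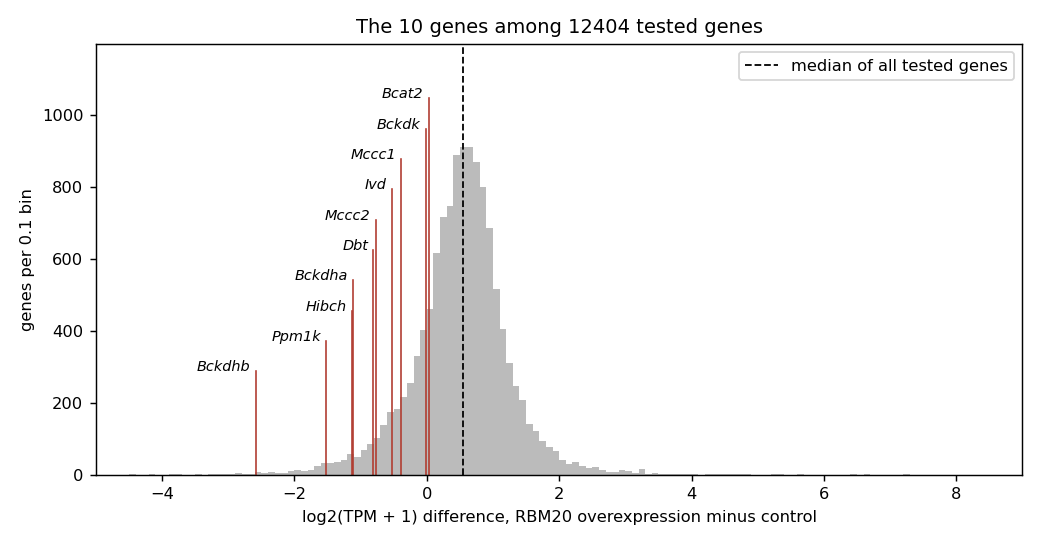
Histogram of the log2(TPM + 1) difference (overexpression minus control) of all 12404 tested genes in bins of 0.1, with the 10 genes marked by red lines whose heights carry no meaning. All 10 lie left of the median of all tested genes, 0.55, and Bckdhb lies at -2.58.

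The aminotransferase gene of the first step was not called in TPM. Bcat2, on chromosome 7 at 45570153 to 45589711 (plus strand), was at 61.6, 69.1 and 72.1 TPM in the overexpression libraries and at 64.0, 68.4 and 66.0 TPM in the control libraries. The groups overlapped, with the highest and the lowest value both among the overexpression libraries. Its log2(TPM + 1) difference was 0.03 (95% interval -0.19 to 0.25, adjusted p = 0.797, limma), but after rescaling it was -0.59 and called lower (adjusted p = 0.00239, limma), so its direction depends on the scaling. Of its exon bases 15.9% are shared with an antisense transcript, 0610005C13Rik, which stayed under 0.25 TPM in every library. How far this overlap affects the level of Bcat2 was not tested. Bcat1, the cytosolic aminotransferase that is low in adult heart, rose to 2.53, 2.53 and 1.64 TPM in the overexpression libraries, against 0.558, 0.365 and 0.715 TPM in the control libraries (log2 difference 1.06, adjusted p = 0.00138, limma). It was called higher after rescaling too (0.73, adjusted p = 0.0123, limma), at levels far below those of Bcat2 in both groups on the length-corrected TPM scale. The control mean of Bcat1, 0.546 TPM, lay below the filter of 1 TPM, so it was tested only because of its overexpression values. With no filter it was also called higher in TPM (adjusted p = 0.00381, limma).

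The subunits of the dehydrogenase complex were all lower, and the E1 beta subunit most of all. Bckdhb, on chromosome 9 at 83925145 to 84124240 (plus strand), had 10.7, 9.13 and 9.97 TPM in the overexpression libraries against 66.1, 67.7 and 59.3 TPM in the control libraries. Mean levels were 9.94 ± 0.79 and 64.4 ± 4.43 TPM (SD, n = 3 each), a 6.48-fold lower level in overexpression and a log2 difference of -2.58 (SE 0.11, adjusted p = 4.09e-06, limma). Ordered from the most negative log2 difference, Bckdhb was number 28 of the 12404 tested genes in TPM and number 25 after rescaling.

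Bckdha, which encodes the E1 alpha subunit, lies on chromosome 7 at 25629946 to 25658981 (minus strand). It had 38.6, 26.8 and 36.0 TPM in the overexpression libraries against 72.7, 72.6 and 75.0 TPM in the control libraries, 2.17-fold lower in overexpression (log2 difference -1.11, SE 0.14, adjusted p = 0.000204, limma). The control libraries lay within a narrow band and overexpression replicate 2 was lowest. B3gnt8, a glycosyltransferase gene on the opposite strand, shares 61.7% of the Bckdha exon bases, and the protocol calls the reads strand-specific without saying how they were counted. B3gnt8 was listed at 0.901, 1.82 and 0.761 TPM in the overexpression libraries and at 0.518, 0.325 and 0.532 TPM in the control libraries, small beside Bckdha. Because the counting is not stated, these low values do not show how far the overlap affects the level of Bckdha or ratios to it.

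Dbt, the E2 core gene, lies on chromosome 3 at 116513070 to 116549981 (plus strand). It had 33.9, 31.6 and 32.1 TPM in the overexpression libraries against 54.6, 65.3 and 53.8 TPM in the control libraries, with a log2 difference of -0.81 (SE 0.11, adjusted p = 0.000296, limma). Dld, the E3 subunit shared with the pyruvate and 2-oxoglutarate complexes, fell to 285, 302 and 302 TPM in the overexpression libraries, against 456.5, 434 and 390 TPM in the control libraries (log2 difference -0.52, adjusted p = 0.000912, limma). In the overexpression libraries Bckdha (33.8 ± 6.20 TPM) and Dbt (32.6 ± 1.19 TPM) overlapped, and Bckdhb (9.94 ± 0.79 TPM) stood apart below both (SD, n = 3 each). In the control libraries Bckdha (73.4 ± 1.34 TPM), Bckdhb (64.4 ± 4.43 TPM) and Dbt (57.9 ± 6.44 TPM) lay close together, and Bckdhb and Dbt overlapped.

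The switch genes of the complex parted. Bckdk, the inhibiting kinase, on chromosome 7 at 127904082 to 127910221 (plus strand), was at 32.8, 35.8 and 32.5 TPM in the overexpression libraries and at 34.9, 34.0 and 33.1 TPM in the control libraries. These ranges overlapped, with a log2 difference of -0.01 (95% interval -0.23 to 0.20, adjusted p = 0.912, limma). After rescaling the difference was -0.62 and called lower (adjusted p = 0.000675, limma). Ppm1k, the activating phosphatase, on chromosome 6 at 57506502 to 57535468 (minus strand), fell to 14.0, 14.6 and 20.7 TPM in the overexpression libraries, against 49.0, 49.96 and 45.6 TPM in the control libraries. That was 2.94-fold lower in overexpression (log2 difference -1.52, SE 0.15, adjusted p = 7.95e-05, limma), with overexpression replicate 3 above the other 2 and still well under the controls. Ppm1k was number 157 of all tested genes from the most negative difference.

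**Figure D3:**
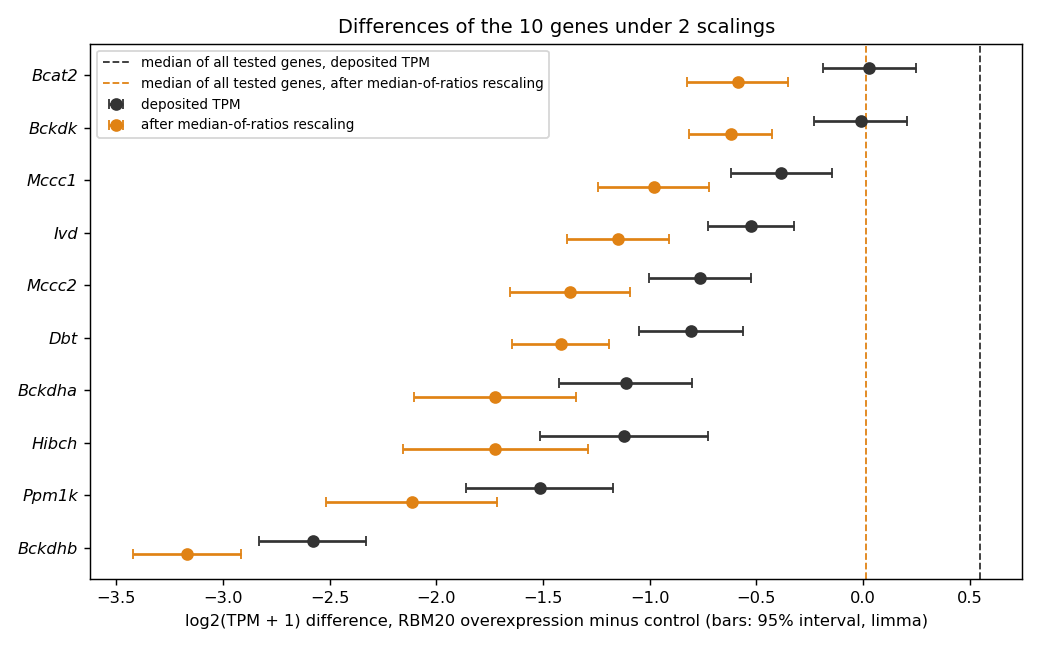
The log2(TPM + 1) difference of each of the 10 genes (overexpression minus control) with its 95% interval from limma, in deposited TPM (black) and after median-of-ratios rescaling (orange); dashed lines mark the median of all tested genes under each scaling. Rescaling shifts each gene to the left, the order from Bckdhb up to Bcat2 stays almost the same, and the intervals of Bcat2 and Bckdk hold 0 in TPM alone.

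The order of levels changed with these differences. From high to low in mean TPM, which is corrected for length, the overexpression libraries had Ivd, Bcat2, Bckdha, Bckdk, Dbt, Mccc2, Mccc1, Hibch, Ppm1k and Bckdhb. Neighbours whose libraries overlapped were Bckdha with Bckdk, Bckdk with Dbt, Mccc1 with Hibch, and Hibch with Ppm1k. The control libraries had Ivd, Bckdha, Bcat2, Bckdhb, Dbt, Ppm1k, Mccc2, Hibch, Bckdk and Mccc1. There Bcat2 overlapped with Bckdhb, Bckdhb with Dbt, Ppm1k with Mccc2, and Mccc2 with Hibch. Bckdhb thus stood last and apart in the overexpression libraries, and Bckdk, near the bottom in the control libraries, stood level with Bckdha and Dbt in overexpression.

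Ratios between genes of the same library do not depend on how libraries are scaled, and 9 such ratios were compared by exact two-sided permutation tests. With 3 libraries against 3 the smallest p possible is 0.1, and 0.129 after Benjamini-Hochberg adjustment over these 9 ratios, so none can pass 0.05. The ratio of kinase to phosphatase, Bckdk over Ppm1k, was 2.35, 2.45 and 1.58 in the overexpression libraries and 0.712, 0.681 and 0.726 in the control libraries. It was above 1 in 3 of 3 overexpression libraries and below 1 in 3 of 3 control libraries, a log2 difference of 1.56 (exact permutation p = 0.1, adjusted p = 0.129). The ratio of E1 beta to E1 alpha, Bckdhb over Bckdha, was 0.277, 0.340 and 0.277 in the overexpression libraries and 0.908, 0.932 and 0.791 in the control libraries. The gap of -1.56 in log2 was large beside the log2 SD of 0.17 in overexpression and 0.13 in control libraries (exact permutation p = 0.1, adjusted p = 0.129).

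The matching ratio of the pyruvate dehydrogenase complex, Pdhb over Pdha1, was chosen for comparison after the values were seen. It was 0.652, 0.612 and 0.657 in the overexpression libraries and 0.853, 0.791 and 0.753 in the control libraries, a log2 difference of -0.32. The shift of Bckdhb over Bckdha exceeded it by 1.24 in log2 (exact permutation p = 0.1, the smallest possible). In both complexes the ratio of E1 beta to E1 alpha was lower in 3 of 3 overexpression libraries than in every control library.

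Of the other ratios, Bckdk over Bckdha was 0.849, 1.335 and 0.904 in the overexpression libraries and 0.480, 0.469 and 0.441 in the control libraries, without overlap. Bcat2 over Bckdha likewise was 1.59, 2.58 and 2.00 in the overexpression libraries and 0.880, 0.942 and 0.880 in the control libraries. Both had a log2 difference above 1, at 1.12 and 1.17 (exact permutation p = 0.1 each). Ivd over Bckdha had a log2 difference of 0.61 and Mccc2 over Mccc1 one of -0.39, both without overlap. Ppm1k over Bckdha differed by -0.44, also without overlap, but by -0.23 without overexpression replicate 1. Dbt over Bckdha (0.31, exact permutation p = 0.3, and 0.17 without overexpression replicate 2) and Hibch over Bckdha (-0.03, exact permutation p = 0.8) overlapped between the groups.

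**Figure D4:**
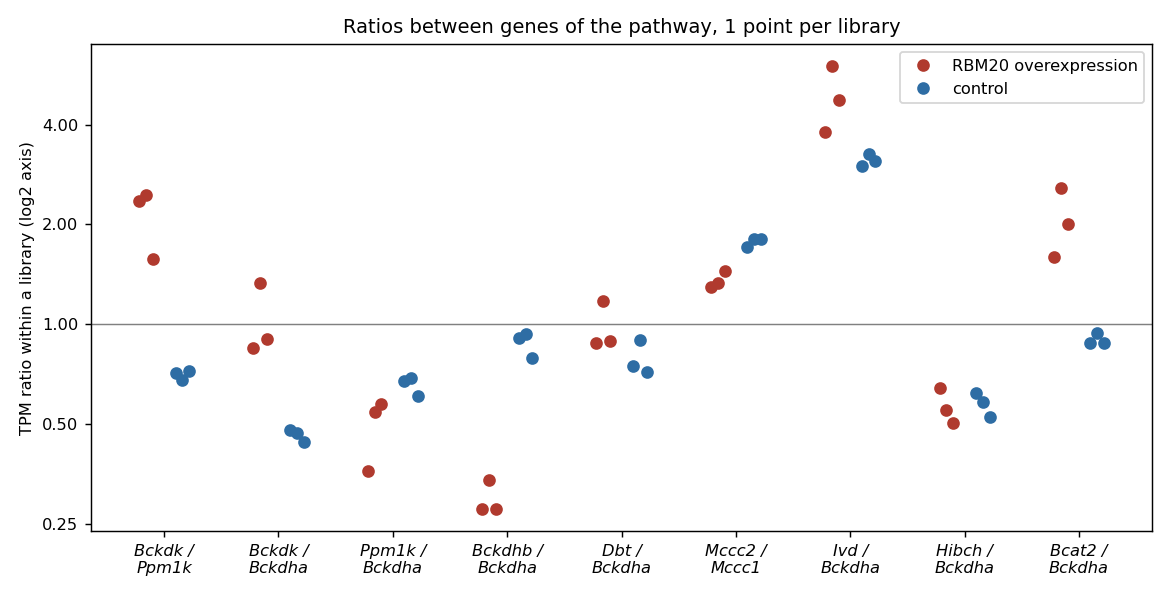
TPM ratio of a pair of genes within each library on a log2 axis, with overexpression libraries (red) left of control libraries (blue) for each pair. Bckdk/Ppm1k lies above 1 in overexpression and below 1 in control libraries, and Bckdhb/Bckdha lies near 0.3 in overexpression (mean 0.298) and near 0.9 in control libraries (mean 0.877).

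The upstream sequences of the pair of genes with the largest decreases and of the pair that was not called in TPM are shown for comparison. They are the 250 bases before the RefSeq start site nearest the GENCODE gene start (RefSeq, GRCm38.p6), read 5′ to 3′ on the gene's strand. Capitals mark CCACCC, the CACCC box bound by KLF factors, and CCAAT, the box bound by NF-Y, on either strand, so that GGGTGG and ATTGG are the same motifs reversed, and the Bcat2 window holds neither. The windows are chr9:83924887-83925136 (plus strand) for Bckdhb, chr6:57535488-57535737 (minus strand) for Ppm1k, chr7:127903823-127904072 (plus strand) for Bckdk and chr7:45569903-45570152 (plus strand) for Bcat2.
Bckdhb: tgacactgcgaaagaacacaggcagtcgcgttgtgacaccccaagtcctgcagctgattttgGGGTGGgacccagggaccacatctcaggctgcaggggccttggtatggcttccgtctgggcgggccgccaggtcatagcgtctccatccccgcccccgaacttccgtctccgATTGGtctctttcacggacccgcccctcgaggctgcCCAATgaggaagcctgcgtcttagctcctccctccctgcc
Ppm1k: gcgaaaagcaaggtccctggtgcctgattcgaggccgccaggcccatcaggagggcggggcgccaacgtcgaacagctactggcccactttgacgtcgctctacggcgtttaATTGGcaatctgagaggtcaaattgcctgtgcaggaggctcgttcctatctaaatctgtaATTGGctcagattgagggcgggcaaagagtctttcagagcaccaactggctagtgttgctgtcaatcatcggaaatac
Bckdk: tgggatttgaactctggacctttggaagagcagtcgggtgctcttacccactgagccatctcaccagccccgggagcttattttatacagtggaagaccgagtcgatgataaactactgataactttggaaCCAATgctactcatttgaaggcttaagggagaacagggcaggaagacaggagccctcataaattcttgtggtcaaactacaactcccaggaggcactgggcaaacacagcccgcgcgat
Bcat2: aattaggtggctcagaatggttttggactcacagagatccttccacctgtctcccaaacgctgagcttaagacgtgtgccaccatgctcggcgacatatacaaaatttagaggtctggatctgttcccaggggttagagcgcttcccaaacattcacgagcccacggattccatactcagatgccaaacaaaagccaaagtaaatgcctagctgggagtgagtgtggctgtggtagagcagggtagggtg

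Windows of 9 of the 10 genes were found, with Dbt unmatched. CCAAT was present in 6 of these 9 windows (Bckdhb, Bckdk, Ppm1k, Ivd, Mccc1 and Mccc2) and in 33.8% of all 32851 promoter windows. CCACCC was present in 3 of 9 (Bckdhb, Ivd and Mccc1) and in 28.1% of all windows. The estrogen-related receptor half-site AAGGTCA, the ETS site CCGGAAG and the NRF1 core CATGCGC were in 0 of 9, and in 4.08%, 6.91% and 3.24% of all windows. Both strands were searched, and 1 pair of matches overlapped, 2 CCAAT boxes of Mccc2 on opposite strands. CCAAT was added to the search after the sequences had been seen. The boxes occur both in genes that fell and in Bckdk, which was not called in TPM, and a match is a description of letters only.

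Of the leucine branch, Ivd, Mccc1 and Mccc2 fell by less than the E1 genes. Ivd, isovaleryl-CoA dehydrogenase, on chromosome 2 at 118861954 to 118882909 (plus strand), had 146, 161 and 170 TPM in the overexpression libraries against 219, 236 and 233 TPM in the control libraries. It was the most abundant of the 10 genes per length in every library and was 1.44-fold lower in overexpression (log2 difference -0.53, SE 0.09, adjusted p = 0.000968, limma). Mccc1 and Mccc2 encode the biotin-bearing alpha and the beta subunit of methylcrotonyl-CoA carboxylase. Mccc1, on chromosome 3 at 35959312 to 36000678 (minus strand), had 19.8, 19.4 and 21.1 TPM in the overexpression libraries against 28.2, 26.4 and 25.0 TPM in the control libraries, the smallest of the 8 decreases (log2 difference -0.38, SE 0.10, adjusted p = 0.0107, limma).

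Mccc2, on chromosome 13 at 99948530 to 100015639 (minus strand), had 25.7, 25.8 and 30.5 TPM in the overexpression libraries against 48.2, 47.7 and 45.1 TPM in the control libraries. Its log2 difference was -0.76 (SE 0.11, adjusted p = 0.000349, limma), a larger decrease than that of Mccc1. The ratio of Mccc2 over Mccc1 differed by -0.39 in log2 without overlap (exact permutation p = 0.1, the smallest possible). Downstream in the same branch, Auh, methylglutaconyl-CoA hydratase, fell (log2 difference -0.47, adjusted p = 0.00355, limma).

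In the valine branch Hibch, 3-hydroxyisobutyryl-CoA hydrolase, on chromosome 1 at 52844929 to 52920986 (plus strand), had 24.8, 14.8 and 18.2 TPM in the overexpression libraries against 45.1, 42.2 and 39.5 TPM in the control libraries. It was 2.20-fold lower in overexpression (log2 difference -1.12, SE 0.17, adjusted p = 0.000613, limma), with overexpression replicate 1 the highest of its group. Without replicate 1 the difference was -1.31. Aldh6a1, the methylmalonate semialdehyde dehydrogenase that ends this branch, had 52.3, 55.8 and 67.8 TPM in the overexpression libraries against 137, 146 and 141.5 TPM in the control libraries (log2 difference -1.26, adjusted p = 4.67e-05, limma). Hibadh fell as well (-0.41), while Acad8 was called lower after rescaling alone (-0.11 in TPM, adjusted p = 0.472, and -0.70 rescaled, adjusted p = 0.00267, limma).

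The rest of the pathway was read from 27 further genes, listed by role with earlier results of these data known. In TPM 12 were lower and 10 higher, and after rescaling 15 were lower and 5 higher. Over all tested genes 9.09% were lower and 59.0% higher in TPM, and 24.0% lower and 22.2% higher after rescaling, so the rescaled count of higher genes was near that of all tested genes. Their median log2 difference was -0.19 in TPM and -0.81 rescaled, against 0.55 and 0.01 over all tested genes. In TPM enzymes of the branches were mostly lower, and transport genes were mostly higher, as were 59.0% of all tested genes. The isoleucine branch was lower in 4 of 4 genes in TPM and after rescaling. Echs1, the short-chain enoyl-CoA hydratase that also serves valine and fatty acids, had 57.5, 65.1 and 69.1 TPM in the overexpression libraries against 148, 142 and 149 TPM in the control libraries (log2 difference -1.19, adjusted p = 3.26e-05, limma). Hsd17b10, a dehydrogenase of the same branch, fell by 0.67 on the log2 scale.

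Propionyl-CoA, the end product of isoleucine and valine, enters the TCA cycle through a carboxylase and a mutase. Of 7 genes of these steps 4 were lower and 1 higher in TPM, and 5 lower and 0 higher after rescaling. Of all tested genes 9.09% were lower and 59.0% higher in TPM, and 24.0% lower and 22.2% higher after rescaling. Pcca, the biotin-bearing subunit of propionyl-CoA carboxylase, had 24.1, 20.5 and 23.1 TPM in the overexpression libraries against 61.1, 59.7 and 55.0 TPM in the control libraries (log2 difference -1.34, adjusted p = 3.00e-05, limma). Its partner Pccb was not called in TPM (-0.19, adjusted p = 0.0663, limma), and was called lower after rescaling (-0.81). Mcee, the epimerase between carboxylase and mutase, fell by 0.54 on the log2 scale. Mmut, the methylmalonyl-CoA mutase, and Mmab, which makes its cobalamin cofactor, fell by 0.97 and 0.87 on the log2 scale. Without overexpression replicate 1, the lowest library at 57.1 TPM, the difference of Mcee was -0.35 (adjusted p = 0.0211, limma).

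Transport genes were higher in 5 of 6 cases in TPM and in 3 of 6 after rescaling, with 0 lower under both, beside 59.0% of all tested genes higher in TPM and 22.2% after rescaling. Slc7a5, the LAT1 transporter of large neutral amino acids at the cell surface, had 15.5, 17.8 and 15.4 TPM in the overexpression libraries against 2.78, 2.18 and 2.40 TPM in the control libraries. It was 6.63-fold higher (log2 difference 2.32, adjusted p = 1.20e-05, limma), and 1.80 after rescaling. Slc3a2, the heavy chain that LAT1 needs at the membrane, was higher in TPM (0.89, adjusted p = 0.000793) and not called after rescaling (0.28, adjusted p = 0.0928, limma). Slc25a44, the mitochondrial carrier of branched-chain amino acids known from mouse brown fat, had 18.9, 18.6 and 18.3 TPM in the overexpression libraries against 7.11, 9.22 and 8.89 TPM in the control libraries (log2 difference 1.07, and 0.49 rescaled, adjusted p = 0.0123, limma). Slc7a8, the LAT2 transporter, rose by 1.12 in TPM and 0.65 rescaled on the log2 scale, but the rescaled call was lost without overexpression replicate 1 or 3 or control replicate 1 or 2, and under quantile normalization of all libraries the difference was 0.57 and not called (adjusted p = 0.0569, limma).

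**Figure D5:**
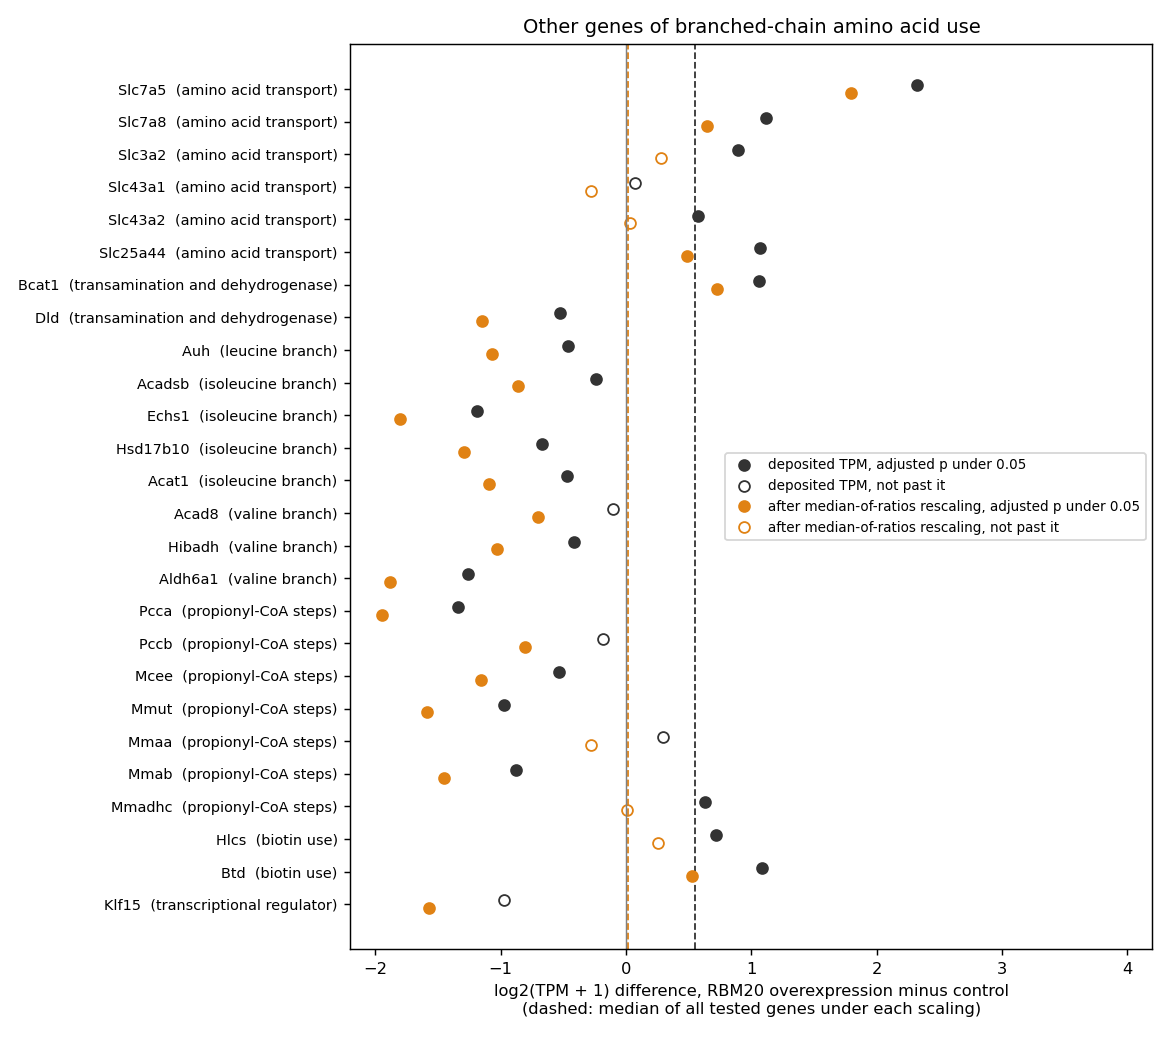
The log2(TPM + 1) difference (overexpression minus control) of other pathway genes by role, in deposited TPM (black) and after rescaling (orange), filled where the adjusted p is under 0.05; dashed lines mark the median of all tested genes. Transport genes and Bcat1 lie mostly to the right and branch enzymes mostly to the left, with Slc7a5 at 2.32 and Pcca at -1.34 in TPM.

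Biotinidase, Btd, which recycles the cofactor of MCCC and PCC, rose by 1.09 in TPM and 0.53 rescaled on the log2 scale, with the rescaled call lost without overexpression replicate 2 or control replicate 2 or 3. Klf15, a transcription factor known to drive branched-chain amino acid genes in mouse heart, had 8.42, 33.1 and 31.7 TPM in the overexpression libraries against 38.7, 36.4 and 52.7 TPM in the control libraries. All overexpression libraries were below the controls, yet replicate 1 alone was far below, and the TPM difference of -0.97 was not called (adjusted p = 0.0782, limma). After rescaling it was called lower (-1.57, adjusted p = 0.0233), though not without control replicate 3 (adjusted p = 0.0783, limma). Without overexpression replicate 1 the difference was -0.36 in TPM (adjusted p = 0.0839), without overexpression replicate 3 it was -1.26 and called lower (adjusted p = 0.0476), and without replicate 1 it was -0.97 rescaled (adjusted p = 0.00656, limma).

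Other mitochondrial genes moved alongside. Nuclear oxidative phosphorylation genes were lower in 21 of 22 cases in TPM, with a median log2 difference of -0.58, against -0.79 for the 10 genes. The sister complexes for pyruvate and 2-oxoglutarate, with their kinases and phosphatases, were lower in 7 of 12 genes and higher in 2 in TPM (median -0.43). After rescaling 22 of 22 and 10 of 12 were lower, and 1 sister complex gene was higher. The shares over all tested genes were 9.09% lower and 59.0% higher in TPM and 24.0% lower and 22.2% higher after rescaling. The profiles over the 6 libraries closest to the mean of the 10 genes, by root mean square distance of centred log2(TPM + 1), included those of Mrpl42 (0.0313), Dusp23 (0.0313), Ndufa6 (0.0503) and Slc25a20 (0.0505). These distances mostly reflect the group difference, since the libraries form 2 groups.

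Counts of cell type markers stand against all tested genes, of which 59.0% were higher and 9.09% lower in TPM, and 22.2% higher and 24.0% lower after rescaling. Cardiomyocyte markers, all 10 detected, summed to 39460 to 44490 TPM in overexpression libraries and 43690 to 49740 TPM in control libraries, with 4 of 10 lower and 2 higher in TPM and 8 lower and 0 higher after rescaling. Macrophage markers were higher in 10 of 10 in TPM and in 8 of 10 after rescaling, with sums of 807 to 1400 TPM in overexpression and 376.5 to 492 TPM in control libraries. Among fibroblast markers 7 of 10 were higher and 1 lower in TPM, near the share of all tested genes, and 5 were higher and 3 lower after rescaling, at 2035 to 2346 TPM in overexpression and 1359 to 1808 TPM in control libraries. Of the pericyte and smooth muscle markers, 9 of 10 were tested, 4 being higher and 1 lower in TPM and 2 higher and 4 lower after rescaling. Sums over all 10 were 2463 to 3298 TPM in overexpression and 1211 to 1405 TPM in control libraries. Des was the largest part and is not particular to these cell types. It was at 2655, 2082 and 1832 TPM in overexpression and 628, 696 and 609 TPM in control libraries. The difference of the sums therefore mainly follows Des and does not describe the list as a whole. Rgs5, the next largest, overlapped, at 336, 384.5 and 359 TPM in overexpression and 440, 407 and 336 TPM in control libraries. Endothelial markers were higher or lower in 0 of 10 in TPM, and 3 were lower and 0 higher after rescaling, at 676 to 854 TPM in overexpression and 589 to 788 TPM in control libraries. Lymphocyte markers, none past the filter, summed to 1.23 to 1.99 TPM in overexpression and 0.45 to 1.05 TPM in control libraries. The part of these cells in the decreases was not tested. Without overexpression replicate 1, the library with Ddx3y, 8 of the 10 genes were lower, and with mitochondrially encoded genes removed 9 of 10 were. Over all genes 1088 were lower and 6816 higher without that replicate. With mitochondrially encoded genes removed, 1718 were lower and 5179 higher.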

How the data were processed

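Left ventricle RNA was measured in 6 libraries, 3 overexpression and 3 control. The deposited table holds TPM per gene symbol, per the name the authors gave it. Per the submitters' processing notes the tools were STAR-Fusion 1.11.0, GATK 4.2.6.1, edgeR 3.40.2 and featureCounts 2.0.3, and the build was mm8, all without a stated role. An aligner and annotation were not given in the sources used here. A fixed total couples all genes, and gene totals do not show exon use.

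Columns were matched to samples by the number in the sample title, and 0 columns were unused. The test kept genes whose mean over the libraries reached 1 TPM and compared log2(TPM + 1) with limma 3.58.1 in R 4.3.3 (trended prior, two-sided, Benjamini-Hochberg, threshold 0.05). It was tried beforehand on simulated data with a small set of genes changed equally often up and down. Those data held no shift over all genes as seen here, so the trial does not cover it. The log2(TPM + 1) scale understates changes of low genes. Where a fold is given, it is a ratio of mean TPM. Rescaling divided libraries by factors of 1.16 to 1.34 (overexpression) and 0.783 to 0.848 (control). The labels number the libraries but do not state separate animals, so a p-value here reflects library-to-library spread, which may be technical. Read totals were estimated with GENCODE M21 exon lengths, with which 38.5% to 48.3% of genes of up to 200 reads came out whole within 0.02 reads in a library, so reads per gene are approximate. Members and lists were chosen with earlier results of these data known. Named genes were the 10 members, Klf15, Bcat1, the 12 pathway genes with the largest difference among those called alike under both scalings, and the nearest profiles. Rbm20 and Esr1 were named as a check of the labels, and Ddx3y, B3gnt8, 0610005C13Rik, Pdhb, Pdha1 and further pathway genes (Dld, Auh, Hibadh, Acad8, Pccb, Slc3a2) after their values were seen. A pathway gene and a near profile are not reported here, and the pathway gene is counted but not drawn. Alternatives were other pseudocounts, filters, scalings, limma priors and each library left out. Figures used Python 3.11.15 and matplotlib 3.10.9.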

Additional observations from a re-analysis of the deposited data

How the results depend on the processing

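The count of 8 lower and 0 higher genes of the 10 held with pseudocounts of 0.1 and 5 TPM, with no filter or one at 5 TPM, without a trend or with a robust prior in limma, and without any single library (8 to 8). Beside this, 1119 and 1121 of all tested genes were lower with these pseudocounts, 1165 with no filter and 910 with the filter at 5 TPM. Without a trend 1117 were lower, with a robust prior 1123, and without any single library 950 to 1088. The filters change how many genes are tested. With mitochondrially encoded genes removed 9 of the 10 were lower, under quantile normalization all 10, and under median of ratios all 10, also with any single library left out. Of all tested genes 9.09% were lower in TPM and 24.0% under median of ratios. No paired analysis was possible because the groups share no replicate number in the labels.

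Bcat2, at 0.03 in TPM, was at -0.25 with mitochondrially encoded genes removed, -0.45 under quantile normalization and -0.59 under median of ratios. With overexpression replicate 1, 2 or 3 or control replicate 1, 2 or 3 left out under median of ratios it was at -0.516, -0.545, -0.684, -0.607, -0.607 and -0.577, and in TPM with a library left out it ranged from -0.0189 to 0.0936. Bckdk ranged from -0.0552 to 0.0120 with a library left out in TPM, turning positive without overexpression replicate 1 (0.006) or 3 (0.012) or control replicate 1 (0.0057). With mitochondrially encoded genes removed Bckdk was called lower (-0.29, adjusted p = 0.0162, limma). Under quantile normalization it was called lower too (-0.53, adjusted p = 0.00128, limma), so its call depends on the scaling. Hibch over Bckdha ranged from -0.124 to 0.0501.

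Over all genes 7316 were higher in TPM, 2963 under quantile normalization and 2756 under median of ratios, and 2481, 2045, 2475, 2639, 2145 and 2084 under median of ratios with the libraries left out in the same order. Lower were 1127 in TPM, 1718 with mitochondrially encoded genes removed, 2816 under quantile normalization and 2974 under median of ratios, and 2746, 2369, 2787, 2839, 2562 and 2424 with libraries left out in that order. Of the 27 other pathway genes 10 were higher in TPM, 5 under quantile normalization and 5 under median of ratios, and 4, 4, 5, 4, 3 and 4 with libraries left out. The lost rescaled calls had adjusted p of 0.0619 to 0.118 for Slc7a8 and 0.0574 to 0.0893 for Btd (limma). With 3 libraries a group, exact tests of ratios cannot go below p = 0.1.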
